A study of Homo sapiens with 36 samples.

Results

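The comparison concerns the mRNAs on heavy polysomes of MDA-MB-231 cells that carried CRISPR interference against the isoleucine tRNA with the GAU anticodon. It sets 3 libraries of cells that also overexpressed the isoleucine tRNA with the UAU anticodon (isoswitch cells) against 3 libraries of cells with a control overexpression construct (GAUi cells). These 6 libraries were chosen by their sample titles, out of 36 in the series. Total RNA and low-translating fractions of the same cell lines, 6 libraries each, were used only to show where the heavy polysomes differed from them, and cells whose CRISPR interference targeted eGFP entered only an alternative fit. MDA-MB-231 is an established human breast cancer line, triple-negative and mesenchymal in character, labelled here as a xenograft cell line. All cells compared therefore shared the tRNA-GAU interference, a cycloheximide pulse of 100 ug/mL for 5 minutes before harvest, and growth in DMEM with serum. The labels do not say whether a line is a clone, or whether replicates A, B and C came from separate cultures. The p-values therefore describe the spread among these libraries, which may be technical.

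Ribosomes that translate one mRNA together form a polysome, and sedimentation separates mRNAs by how many ribosomes they carry. Short coding sequences hold few ribosomes even when they are well translated, so their mRNAs sediment lighter than long ones, and untranslated RNAs stay near the top. In this series the low fraction held the monosome and the first polysome peak, and the high fraction held heavier polysomes. Among the isoleucine tRNAs of human cells, the tRNA with the UAU anticodon reads AUA codons, whereas the tRNA with the GAU anticodon pairs with AUC and, by wobble, with AUU. RefSeq (GRCh38.p14) lists 3 genes of the GAU tRNA, all on chromosome X, and 5 of the UAU tRNA, on chromosomes 2, 6 and 19. The libraries read the 3' ends of polyadenylated RNA, so the tRNAs themselves were not measured. How well the libraries capture other non-coding RNAs, such as RPPH1, RN7SL1 and TERC, and histone mRNAs was not tested.

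The high-fraction libraries held 5629187 to 7486149 counts and detected 14803 to 15036 genes each. Levels are given as CPM, the usual library-scaled count, after TMM scaling within a fraction. CPM are shares of a library, so the absolute amount of RNA in a fraction is unknown, and more cells with an mRNA cannot be told apart from more of it per cell. Mesenchymal markers of the line summed to 4366 to 4802 CPM in isoswitch and 4024 to 4196 CPM in GAUi high fractions, with 0 of 15 at zero throughout. Luminal markers of other breast cancers were partly present and summed to 89.9 to 108 CPM in isoswitch and 91.5 to 107 CPM in GAUi, with 3 of 11 at zero throughout. Fibroblast markers summed to 2.39 to 3.46 CPM in isoswitch and 2.35 to 3.10 CPM in GAUi (5 of 10 at zero), and endothelial markers to 1.54 to 3.16 CPM in isoswitch and 1.37 to 3.39 CPM in GAUi (5 of 9 at zero). Leukocyte markers summed to 11.8 to 18.2 CPM in isoswitch and 9 to 15.8 CPM in GAUi (5 of 11 at zero). Library isoswitch A lay farthest from GAUi cells: among genes called in the comparison below, it was the isoswitch library with the largest distance in 70.3%. In total RNA, the chi-square of counts divided by its degrees of freedom was 1.76 to 2.25 between isoswitch libraries. Between GAUi libraries it was 22.3 for A and B, 12.04 for A and C and 8.01 for B and C, so all 3 GAUi libraries differed more from each other, and A the most.

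Heavy polysomes of isoswitch cells held more mRNA of glycolysis, mitotic, cytoskeletal and chaperone genes and less of ribosomal protein, respiratory chain and snoRNA host genes than those of GAUi cells. Most differences were small. Of 11625 genes tested, 1071 were higher in isoswitch (9.21% of those tested) and 1151 lower (9.90%), at an adjusted p under 0.05 in the edgeR quasi-likelihood test with Benjamini-Hochberg adjustment, which gives every adjusted p below. Called genes were 19.1% of those tested, with a median absolute log2 fold change of 0.40, and 30 genes (0.258%) changed at least 2-fold, 16 up and 14 down. The median log2 fold change over all genes tested was 0.02, and the groups did not overlap for 35.8% of them. Counts for each list below are to be read beside the shares of all genes, 9.21% higher and 9.90% lower. The number called was 1239 without GAUi A, 1439 without isoswitch A, and 1508 to 2273 without any other single library.

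**Figure D1:**
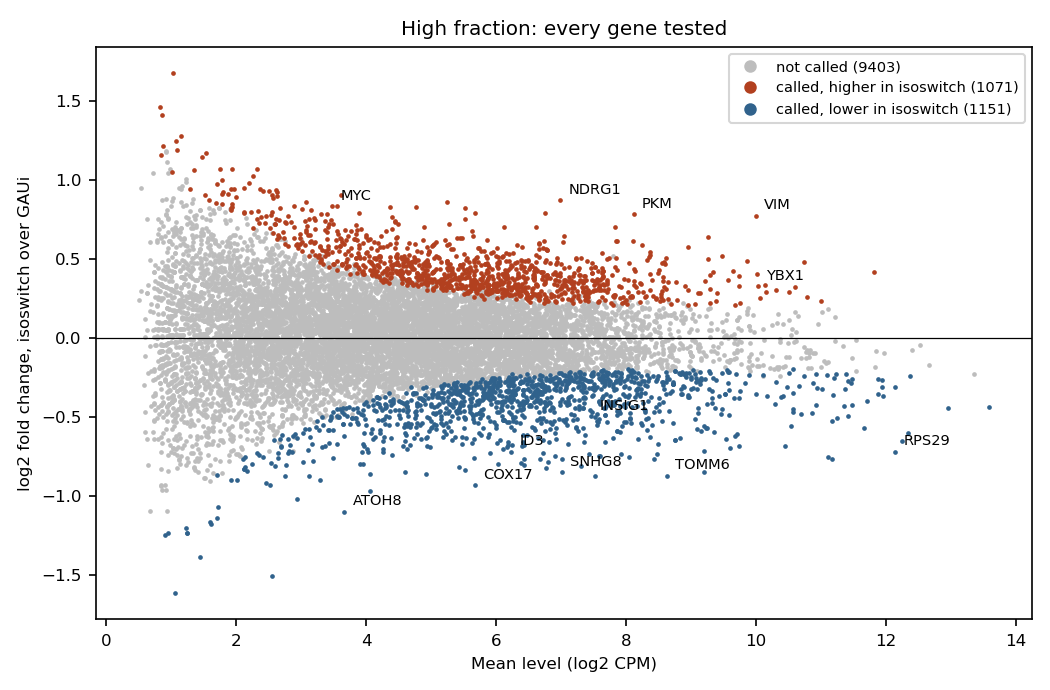
Log2 fold change of isoswitch over GAUi cells in the high fraction (vertical axis) against mean level in log2 CPM (horizontal axis) for each of the 11625 genes tested. Red points are the 1071 genes called higher in isoswitch, blue points the 1151 called lower, grey points those not called. Called genes lie on both sides of 0, and the lowest-level genes reach the largest fold changes.

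NDRG1, a stress- and hypoxia-induced gene that restrains metastasis in several tumours (chromosome 8), had the smallest p of the comparison. Its level was 164, 163 and 164 CPM in isoswitch A, B and C, against 85.6, 97.1 and 85.4 CPM in GAUi A, B and C (log2 fold change 0.87, SE 0.08, adjusted p = 2.72e-06). The groups did not overlap, a condition for its place among the highest genes, and the isoswitch libraries were nearly identical. Its log2 fold change was 0.70 in total RNA (adjusted p = 0.273) and 0.50 in the low fraction (adjusted p = 0.0183).

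GRN, the precursor of the lysosomal granulins, had 67.1, 59.5 and 66.6 CPM in isoswitch, against 38.7, 35.2 and 38.0 CPM in GAUi (0.79, SE 0.09, adjusted p = 3.08e-05). The lysosomal protease CTSL had 32.8, 32.5 and 38.9 CPM in isoswitch, against 22.1, 21.3 and 14.9 CPM in GAUi (0.83, SE 0.13). OS9, a lectin of endoplasmic reticulum quality control, had 19.7, 16.4 and 19.3 CPM in isoswitch, against 10.8, 10.3 and 10.9 CPM in GAUi (0.79, SE 0.14). In all 3 genes each isoswitch library lay above each GAUi library, a condition by which they were chosen. Other genes with high log2 fold changes were named by the same rule: called, without overlap and with a mean log2 CPM of at least 3. Among them were the phosphatase scaffold PPP2R1A (0.86), the small G protein RASD1 (0.86), the ubiquitin-like ligase HERC5 (0.84) and the transcription factor MYC (0.83). ALDH6A1 and OXCT1, mitochondrial enzymes of branched-chain amino acid and ketone body breakdown, rose by 0.83 and 0.78. The stress cytokine GDF15 (0.81) and the intraflagellar transport gene IFT74 (0.81) rose at low levels, and ANXA2P3 (0.79) is a pseudogene of ANXA2, with reads that cannot be assigned with certainty. The call of IFT74 was lost without GAUi B (0.65, adjusted p = 0.0527) and without isoswitch A (0.61, adjusted p = 0.0774).

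At the other end stood mRNAs of small proteins of mitochondrial import and assembly. COX17, the copper chaperone of cytochrome oxidase, had 25.8, 42.1 and 37.2 CPM in isoswitch, against 68.8, 60.7 and 70.1 CPM in GAUi (log2 fold change -0.93, SE 0.13, adjusted p = 7.96e-05). TIMM13, a small chaperone of the intermembrane space, had 361, 499 and 402 CPM in isoswitch, against 784, 666 and 819.8 CPM in GAUi (-0.85, SE 0.10, adjusted p = 3.08e-05). TOMM6, a subunit of the outer membrane translocase, had 216, 339.8 and 281 CPM in isoswitch, against 522, 473 and 535 CPM in GAUi (-0.87, SE 0.11). The groups did not overlap in any of the 3, a condition by which they were chosen, and isoswitch A was the lowest library in each. TRIAP1, an intermembrane space protein of lipid transfer, fell by 0.87, and the lysosome-positioning subunit BLOC1S2 by 0.81. The lowest called gene without overlap at a mean log2 CPM of at least 3 was ATOH8, a transcription factor. ATOH8 had 6.79, 8.12 and 8.71 CPM in isoswitch, against 17.6, 14.5 and 18.5 CPM in GAUi (-1.10, SE 0.16). Its log2 fold change was -0.73 in the low fraction, without overlap (adjusted p = 0.0736), and -0.43 in total RNA (adjusted p = 0.666). In the high fraction RPPH1, the RNA subunit of ribonuclease P (-0.97), and PRR34-AS1, an antisense transcript whose reads may belong to its sense partner (-0.88), were lower too. PRADC1 (-0.90), MYEOV2 (-0.86), C4orf48 (-0.85) and SS18L2 (-0.84) were lower by similar amounts.

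**Figure D2:**
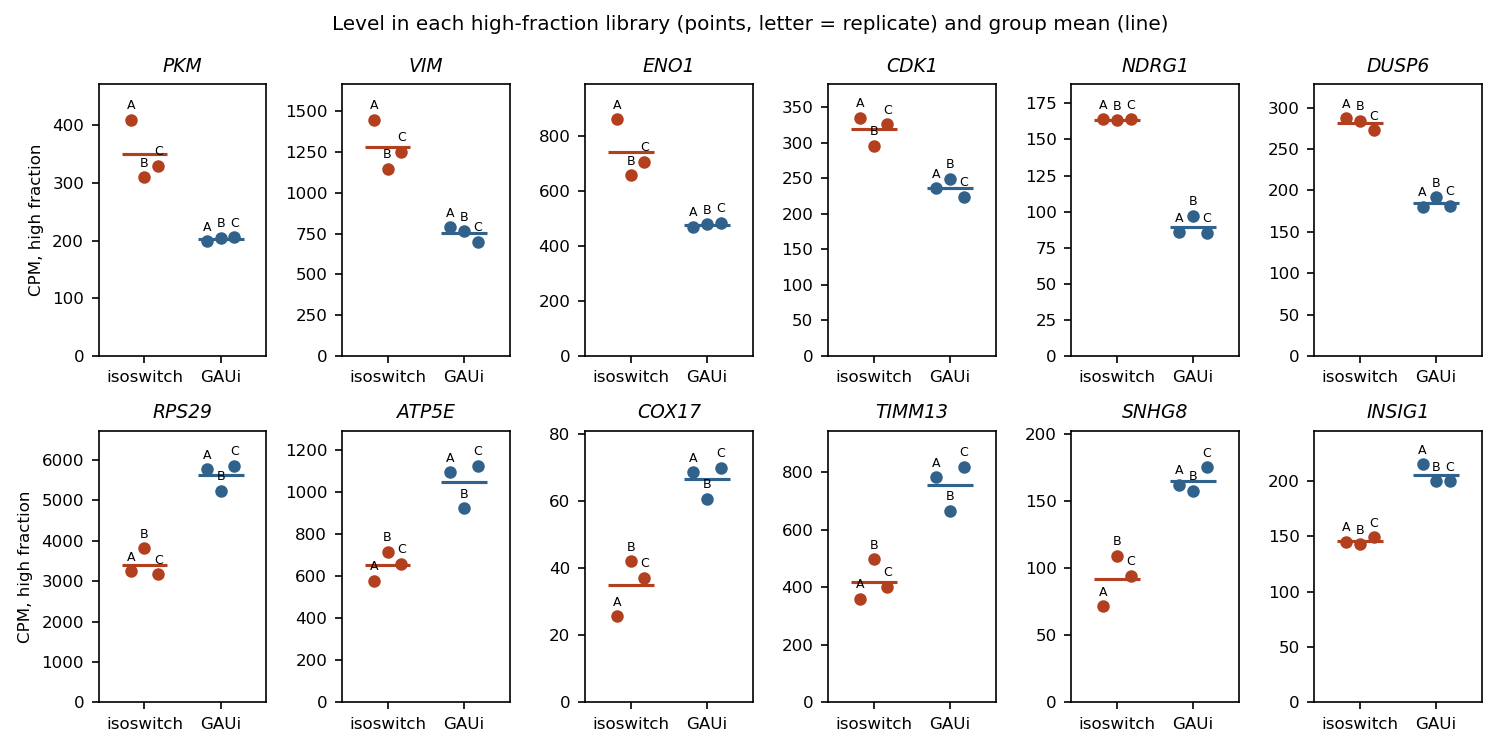
Level in CPM (vertical axes, from 0) of 12 genes in each high-fraction library, with points for replicates A, B and C and a line for the group mean, isoswitch in red on the left and GAUi in blue on the right. The 6 genes in the upper row were higher and the 6 in the lower row lower in isoswitch, with no overlap between groups in any panel.

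Ribosomal protein mRNAs, the messages of the small and large ribosomal subunits, were mostly lower on isoswitch heavy polysomes. Of 79 members tested, 45 fell and 2 rose, with a median log2 fold change of -0.24, beside the 9.90% of all genes that fell. Many of these mRNAs begin with a C followed by an unbroken run of pyrimidines, the terminal oligopyrimidine tract through which mTORC1 signalling controls their translation. The starts of the 4 members with the smallest p are printed as examples, RPS29 among them, which has no such tract at its annotated start. Those of 4 glycolytic genes described further on are printed too, and a role of the tract was not tested. Each line gives the 10 bases before and the first 20 bases from the start annotated by RefSeq (GRCh38.p14), in the sense of the gene, with a tract in capitals.
RPS21 (chr20:62387093-62387122, plus strand): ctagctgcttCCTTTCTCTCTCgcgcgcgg
RPS28 (chr19:8321486-8321515, plus strand): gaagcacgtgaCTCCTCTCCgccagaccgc
RPL37A (chr2:216498834-216498863, plus strand): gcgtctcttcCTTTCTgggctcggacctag
RPS29 (chr14:49598691-49598720, minus strand): agcgcgcagctggcagcggtggttgtttct
PKM (chr15:72231171-72231200, minus strand): gtggctccttgcacagcagctgcacgcgcc
PGK1 (chrX:78104238-78104267, plus strand): cccgcgcggtgttccgcattctgcaagcct
ENO1 (chr1:8878667-8878696, minus strand): cggcgcggacagtatctgtgggtacccgga
LDHA (chr11:18394553-18394582, plus strand): ccagctcagagtgctgcagccgctgccgcc

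RPS21 had 1389, 1852 and 1672 CPM in isoswitch, against 2894, 2521 and 2878 CPM in GAUi (log2 fold change -0.76, SE 0.09, adjusted p = 3.08e-05). RPS28 had 1468, 1976 and 1657 CPM in isoswitch, against 2965, 2571 and 3159 CPM in GAUi (-0.77, SE 0.09, adjusted p = 3.99e-05). RPS29 had 3245, 3819 and 3172 CPM in isoswitch, against 5775, 5238 and 5862 CPM in GAUi (-0.72, SE 0.08, adjusted p = 3.04e-05). The groups did not overlap in these genes, nor in RPL37A (-0.65, adjusted p = 4.56e-05). The members that rose were RPL4 (0.47) and RPL5 (0.23), and RPL3 did not pass (0.18, adjusted p = 0.118). Protein sizes are named throughout as background, and a relation of the differences to coding length was not tested. RPL5 or RPL4 lost its call, leaving 1, without any single library other than isoswitch B. Ribosomal protein genes have many processed pseudogenes, so their counts are uncertain. In sum the 79 members took 154000, 160400 and 147600 CPM in isoswitch A, B and C, against 187500, 184700 and 195900 CPM in GAUi A, B and C, with no overlap (exact two-sided permutation test, p = 0.1, the smallest that 3 against 3 allows).

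Outside this family, the tract was about as frequent among genes that rose as among genes that fell. A C followed by at least 4 C or T bases, beginning within 3 bases of an annotated start on the sense strand, was found in 1842 of the 9501 tested genes with a RefSeq start (19.4%), and in 53 of 64 matched ribosomal protein genes (82.8%). Of the 53 ribosomal protein genes with a tract 35 fell and 0 rose, and of the 11 without one 4 fell and 1 rose. Among 1789 other genes with a tract, 190 rose and 194 fell, with a median of 0.01. Among 7648 other genes without one, 726 rose and 722 fell, with a median of 0.02. The annotated start need not be the start used in these cells, and the match describes letters only.

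Nuclear-encoded respiratory chain genes, which build the complexes of oxidative phosphorylation, split by subunit. Of 75 tested, 35 fell and 8 rose (median log2 fold change -0.20). ATP5E, the small epsilon subunit of ATP synthase, had 578, 715 and 659 CPM in isoswitch, against 1093, 922 and 1124 CPM in GAUi (-0.69, SE 0.09, adjusted p = 4.59e-05). UQCRQ, a small subunit of complex III, had 500.4, 550.2 and 515 CPM in isoswitch, against 830.5, 693 and 841 CPM in GAUi (-0.59, SE 0.08). No isoswitch library reached any GAUi library in these genes. ATP5I (-0.77), UQCRH (-0.73), UQCR11 (-0.63) and NDUFB1 (-0.60) were lower by similar amounts. The members that rose were the catalytic subunits ATP5A1 (0.57) and ATP5B (0.54), SDHA (0.44), UQCRC1 (0.38), UQCRC2 (0.35), ATP5C1 (0.30), NDUFA10 (0.29) and NDUFA9 (0.26). The number that rose was 4 without GAUi A, 5 without GAUi C and 5 without isoswitch C, and the number that fell was 27 to 36 without any single library.

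The mitochondrial ribosome followed, with 23 of 55 tested members lower and 1 higher (median -0.18). MRPL33 had 65.7, 114 and 87.9 CPM in isoswitch, against 163, 142 and 144 CPM in GAUi (-0.75, SE 0.13, adjusted p = 0.000414). MRPS24 had 201, 237 and 223 CPM in isoswitch, against 320.0, 304 and 318 CPM in GAUi (-0.51, SE 0.08). Their groups did not overlap. The lower count was 14 without GAUi A and 12 without isoswitch C. The higher member, MRPS5, lost its call without GAUi A or isoswitch A.

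Of 30 spliceosome genes tested, 14 fell and 8 rose, with a median of -0.04. All 14 that fell encode Sm, LSm and other small proteins, such as SNRPG, a member of the Sm ring, with 94.5, 129 and 121 CPM in isoswitch, against 208, 189 and 208 CPM in GAUi (-0.81, SE 0.09, adjusted p = 3.08e-05). LSM3 (-0.60) and SNRPF (-0.58) were next. The 8 that rose include the splicing factor 3 subunits SF3B4 (0.68), SF3A2 (0.63), SF3A3 (0.48) and SF3A1 (0.42). SF3A3 had 114, 112 and 116 CPM in isoswitch, against 77.3, 84.0 and 83.2 CPM in GAUi, without overlap. The number that rose was 5 without GAUi A.

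Long non-coding RNAs, mostly host transcripts of snoRNAs that are spliced, exported and make no stable protein, had the lowest median of any list, -0.54. Of 30 tested, 20 fell and 0 rose, and the number that fell was 17 to 20 without any single library. SNHG8 had 71.6, 109 and 94.4 CPM in isoswitch, against 162, 158 and 176 CPM in GAUi (-0.85, SE 0.11, adjusted p = 4.59e-05). SNHG15 (-1.02), C6orf48, also called SNHG32 (-0.83), DANCR (-0.80), ZFAS1 (-0.77) and GAS5 (-0.76) were lower too. The nuclear RNA MALAT1 fell less (-0.33), and NEAT1 was at 0.00 (not called). LRRC75A-AS1 had 202, 294.5 and 265 CPM in isoswitch, against 459.8, 376 and 460.4 CPM in GAUi (-0.77, SE 0.11), but its reads may come from the sense gene it overlaps, since no source used here gives the strand setting. Over all 356 tested genes annotated as lncRNA, 61 fell and 8 rose, with a median of -0.26, and of 10981 protein-coding genes 1057 rose and 1055 fell.

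Glycolysis was the list with the highest median, 0.47. Of 21 members tested, 13 rose and 0 fell, and without any single library 12 or 13 rose. PKM, which makes pyruvate, had 410.1, 311 and 330.5 CPM in isoswitch, against 199.6, 205 and 206.5 CPM in GAUi (log2 fold change 0.78, SE 0.09, adjusted p = 3.04e-05). ENO1, the enolase, had 861, 657 and 705 CPM in isoswitch, against 469, 479 and 484 CPM in GAUi (0.63, SE 0.08). LDHA, which turns pyruvate into lactate, had 405.5, 329.7 and 360.5 CPM in isoswitch, against 230.2, 264 and 237 CPM in GAUi (0.58, SE 0.08). The lowest isoswitch library exceeded the highest GAUi library in each, and isoswitch A was highest. PGK1 (0.64), ALDOC (0.83), PFKP (0.58), GAPDH (0.48), ALDOA (0.47) and the glucose transporter SLC2A1 (0.49) were among the others that rose. TPI1 (0.05) and PGAM1 (-0.19) did not pass. In the 4 glycolytic windows printed above, no pyrimidine tract began within the 3 bases searched around the annotated start. Over all tested genes with a RefSeq start, only 19.4% had one.

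Cytosolic heat shock genes rose for 11 of 19 tested members and fell for 1, with a median of 0.33. The list also counts the mitochondrial HSPD1 and HSPE1. HSP90AA1, the inducible HSP90, had 1312, 1099 and 1116 CPM in isoswitch, against 872, 854 and 946 CPM in GAUi (0.40, SE 0.08, adjusted p = 0.00122), without overlap. The co-chaperones STIP1 (0.51) and DNAJA1 (0.41) rose. HSPA1A rose by 0.73 and HSPA1B was at 0.46 (not called), but the genes are nearly identical in sequence and their reads uncertain. The member that fell was HSPE1 (-0.45), the small partner of the mitochondrial chaperonin HSPD1, which rose (0.37). The number that rose was 7 without GAUi A, 6 without GAUi C and 6 without isoswitch A. Proteasome genes rose for 12 of 31 and fell for 2 (median 0.20), led by the lid subunit PSMD12, with 139.7, 115 and 131 CPM in isoswitch, against 74.2, 93.4 and 84.3 CPM in GAUi (0.61, SE 0.09). All 3 isoswitch libraries were above the GAUi ones. The proteasome members that fell were PSMA7 (-0.26) and PSMD8 (-0.21). Without GAUi A 7 proteasome genes rose, and at most 1 fell without any library other than isoswitch B.

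Among chaperone, translocation and stress genes of the endoplasmic reticulum, 8 of 28 rose and 4 fell (median 0.18). The disulfide isomerase PDIA3 had 116, 122 and 123 CPM in isoswitch, against 76.7, 86.5 and 80.9 CPM in GAUi (0.56, SE 0.08, adjusted p = 0.000103), and PDIA4 rose by 0.63. HSPA5, the main chaperone of the compartment, rose by 0.32 and CALR by 0.33. The translocon subunits SEC61B (-0.52) and SEC61G (-0.46), SDF2L1 (-0.52) and the transcription factor ATF4 (-0.41) fell. Without isoswitch C, 4 members rose.

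**Figure D3:**
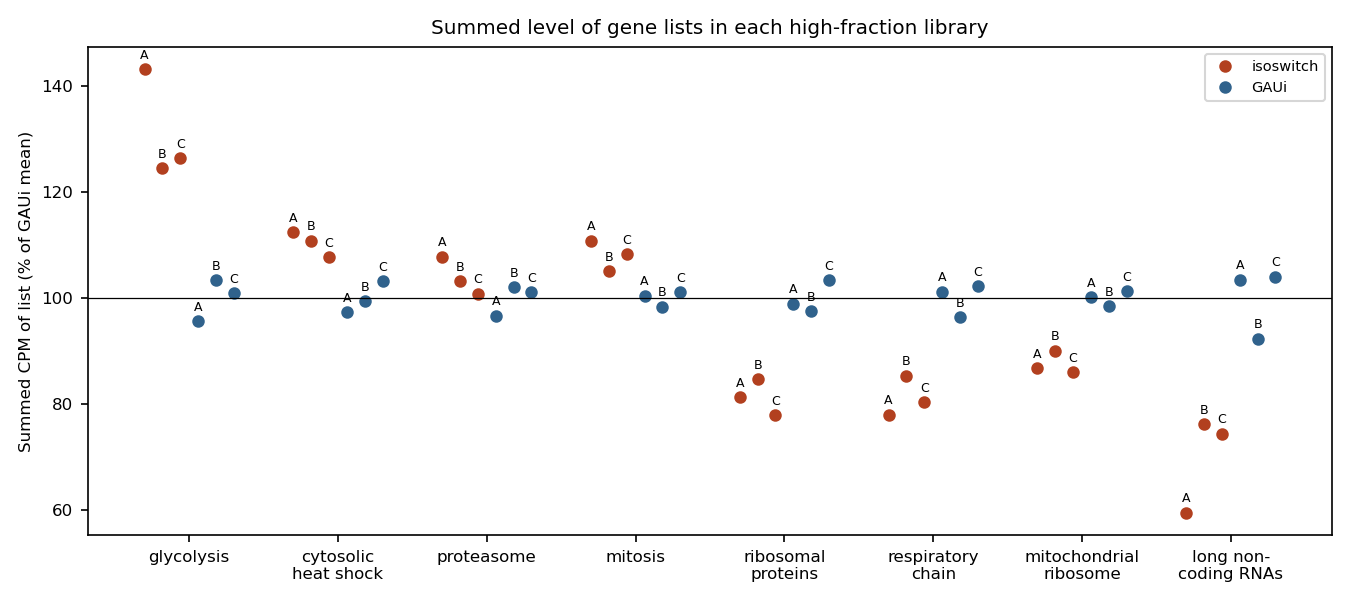
Summed CPM of 8 gene lists in each high-fraction library, as a percentage of the mean over the 3 GAUi libraries (vertical axis), with letters for replicates. Isoswitch libraries, in red, lie at 124.5% to 143% for glycolysis and at 59.5% to 76.2% for long non-coding RNAs. Of these 8 lists, isoswitch and GAUi libraries overlap for the proteasome only. Among lists not drawn, they also overlap for ER chaperones, immediate early genes, translation factors, ATF4 targets, interferon and invasion genes. They do not overlap for others, such as DNA replication and cytoskeletal genes.

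Mitotic genes rose for 15 of 35 members and fell for 1, with a median of 0.26. CDK1, the kinase that drives mitotic entry, had 336, 296 and 327 CPM in isoswitch, against 236, 249.5 and 224 CPM in GAUi (0.43, SE 0.07, adjusted p = 0.000516). The spindle protein NUSAP1 (0.49), the checkpoint kinase BUB1B (0.47), the anaphase activator CDC20 (0.47) and AURKA (0.36) rose. BIRC5, the small survivin protein, fell (-0.32), and MKI67 (-0.07) and TOP2A (0.06) did not pass. In each of CDK1, NUSAP1, CDC20 and AURKA the groups did not overlap. Without GAUi A 9 mitotic genes rose. DNA replication genes rose for 10 of 40 and fell for 1 (median 0.16). The helicase subunits MCM6 (0.53), MCM7 (0.50) and MCM5 (0.50) and the ribonucleotide reductase RRM2 (0.48) rose, whereas GINS2 (-0.44) fell. RRM2 had 113, 97.1 and 104.5 CPM in isoswitch, against 76.1, 76.2 and 72.6 CPM in GAUi. Without GAUi A 5 replication genes rose and without isoswitch A 6, and 2 fell without isoswitch B.

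Cytoskeletal genes rose for 13 of 34 members and fell for 2 (median 0.15). FSCN1, the actin-bundling protein of filopodia, had 74.0, 50.8 and 49.7 CPM in isoswitch, against 32.9, 33.5 and 32.7 CPM in GAUi (0.82, SE 0.13, adjusted p = 0.000211). The actin ACTG1 had 4227, 4116 and 4010 CPM in isoswitch, against 2967, 3379 and 2929 CPM in GAUi (0.41, SE 0.07). Both genes were higher in each isoswitch library than in any GAUi library. TUBB (0.48), vinculin, VCL (0.50), and zyxin, ZYX (0.45), rose as well. The members that fell were the thymosins TMSB4X (-0.65) and TMSB10 (-0.53), very small actin-sequestering proteins. Without isoswitch B 4 cytoskeletal genes fell.

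Genes tied to invasion and to the mesenchymal state did not move as one. Of 35 metastasis and invasion genes, 8 rose and 3 fell (median 0.09), beside 9.21% and 9.90% of all genes. The part that fell was near that of all genes. VIM, the mesenchymal intermediate filament, had 1449, 1149 and 1253 CPM in isoswitch, against 790.6, 764 and 701 CPM in GAUi (0.77, SE 0.08, adjusted p = 3.03e-05). MMP14, a membrane collagenase (0.65), the annexins ANXA1 (0.70) and ANXA2 (0.50), the integrin ITGA3 (0.52) and the hyaluronan receptor CD44 (0.45) rose. ID3, an inhibitor of basic helix-loop-helix factors, had 57.9, 54.9 and 56.7 CPM in isoswitch, against 93.1, 93.6 and 92.6 CPM in GAUi (-0.72, SE 0.08, adjusted p = 3.04e-05), and ID1 fell by 0.41. Neither VIM nor ID3 overlapped between groups. In total RNA, where no gene was called, ID3 differed by -0.60 and MMP14 by 0.53, near their high-fraction values. The other genes named did not follow there: VIM was at 0.08, ID1 at 0.04, ITGA3 at -0.12 and CD44 at -0.13. ANXA1 was at -0.41 and ANXA2 at -0.22. S100A4, a small calcium-binding protein of metastasis, had 337, 392 and 382.5 CPM in isoswitch, against 489, 440.2 and 472.5 CPM in GAUi (-0.33, SE 0.08, adjusted p = 0.00389). In total RNA it had 283, 290.4 and 310.4 CPM in isoswitch, against 180.1, 206 and 254 CPM in GAUi (0.47, adjusted p = 0.533), and its high-to-total ratio fell by 0.80 (adjusted p = 0.0147), a comparison in which 0 genes were called without total RNA isoswitch C. Without isoswitch B 5 members of the invasion list fell. Of 14 mesenchymal markers 4 rose and 2 fell, and keratin and junction genes rose for 7 of 23 with 0 lower, among them KRT8 (0.72), KRT19 (0.51) and KRT18 (0.37), with 4 without GAUi A or without isoswitch A.

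Genes of the translation apparatus other than the ribosome were more often higher than lower. Aminoacyl-tRNA synthetases, which charge tRNAs, rose for 10 of 24 and fell for 1 (median 0.24). DARS, for aspartate, had 111, 92.1 and 100.5 CPM in isoswitch, against 64.6, 69.8 and 69.3 CPM in GAUi (0.58, SE 0.09, adjusted p = 0.000175), and SARS (0.50), QARS (0.50) and FARSA (0.44) rose. IARS, the synthetase that charges the isoleucine tRNAs in the cytosol, had 32.6, 25.3 and 34.8 CPM in isoswitch, against 29.7, 30.1 and 26.6 CPM in GAUi (0.10, SE 0.12, adjusted p = 0.625). Its groups overlapped. The small synthetase-complex protein EEF1E1 fell (-0.30), with 0 lower without GAUi A. Translation factors rose for 12 of 43 and fell for 3 (median 0.12), among them EIF3E (0.49), EIF2S3 (0.47) and EIF4B (0.44) up, and EIF5A (-0.44), EIF4EBP1 (-0.41) and EIF1 (-0.23), small proteins, down. Without GAUi A the translation factors that rose numbered 5 and those that fell 1.

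Targets of the amino acid stress factor ATF4 rose for 5 of 26 and fell for 3 (median 0.14), beside 9.21% and 9.90% of all genes. The part that fell was near that of all genes. PSAT1, of serine synthesis, had 122, 113 and 127 CPM in isoswitch, against 73.9, 83.2 and 65.5 CPM in GAUi (0.70, SE 0.09, adjusted p = 5.33e-05), and PHGDH, of the same pathway (1.02), and the amino acid transporter subunit SLC3A2 (0.62) rose. The feedback phosphatase subunit PPP1R15A (-0.39), ATF5 (-0.51) and the glutamine transporter SLC38A2 (-0.39) fell. ATF5, PPP1R15A and ATF4 have regulatory upstream reading frames. The groups did not overlap in PSAT1, ATF5 or PPP1R15A.

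Immediate early genes rose for 8 of 26 with 0 lower (median 0.20). DUSP6, a phosphatase that restrains ERK, had 287, 284 and 272 CPM in isoswitch, against 180.0, 192 and 181.5 CPM in GAUi (0.61, SE 0.07, adjusted p = 3.08e-05). MYC (0.83), JUNB (0.72), IER2 (0.42) and JUN (0.40) rose without overlap. For this list the median was also above 0 in total RNA, at 0.18. Without isoswitch C 5 members rose. Hypoxia response genes rose for 7 of 23 and fell for 2 (median 0.25), with NDRG1 and DDIT4 (0.41) among those that rose, while HILPDA (-0.57) and ADM (-0.24) fell. Without isoswitch C 4 hypoxia genes rose, and 1 fell without any library other than isoswitch A. Interferon response genes rose for 6 of 36 with 0 lower (median 0.27), among them HERC5 (0.84), IFIT2 (1.07), OAS3 (1.41), HLA-B (0.34) and HLA-C (0.26). OAS3 had only 2.22, 1.80 and 2.73 CPM in isoswitch, against 1.03, 0.684 and 0.782 CPM in GAUi. The number was 3 without GAUi A, 3 without GAUi C and 2 without isoswitch C, and 1 member fell without isoswitch B. OAS3 was among the calls lost, with an adjusted p of 0.0553 to 0.0688 without GAUi B, GAUi C or isoswitch C.

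Cholesterol synthesis and sterol control genes fell for 5 of 27 with 0 higher, around a median of 0.04. INSIG1, which retains the SREBP factors in the endoplasmic reticulum, had 145, 143 and 149 CPM in isoswitch, against 215, 200 and 200.1 CPM in GAUi (-0.49, SE 0.07, adjusted p = 0.000145), without overlap. It was also lower without overlap, though not called, in total RNA (-0.22, adjusted p = 0.617) and the low fraction (-0.29, adjusted p = 0.101). Neither its high-to-total ratio (-0.28, adjusted p = 0.216) nor its high-to-low ratio (-0.20, adjusted p = 0.268) was called. In the high fraction the SREBP escort SCAP (-0.27), SREBF2 itself (-0.32), the mevalonate kinase MVK (-0.35) and the sterol carrier STARD4 (-0.35) also fell. The number was 3 without GAUi A, 3 without GAUi B, 1 without GAUi C, 1 without isoswitch A and 2 without isoswitch C, and 1 member rose without GAUi A. SREBF2 had adjusted p = 0.172 without GAUi A, and MVK 0.0824 without GAUi B. PRKX, a protein kinase gene on chromosome X (3604340 to 3713649, GRCh38.p14), the chromosome of the GAU tRNA genes, had 15.0, 17.7 and 17.1 CPM in isoswitch, against 20.2, 24.9 and 25.03 CPM in GAUi (-0.50, SE 0.13, adjusted p = 0.00998), with -0.43 and adjusted p = 0.0508 without isoswitch A. Histone genes had 3 of 17 higher and 4 lower (median -0.01), the replacement histones H2AFZ (-0.43) and H2AFV (-0.45) among those that fell. The number that rose was 1 without GAUi A, 1 without GAUi C and 5 without isoswitch A, and the number that fell was 2 without GAUi A.

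**Figure D4:**
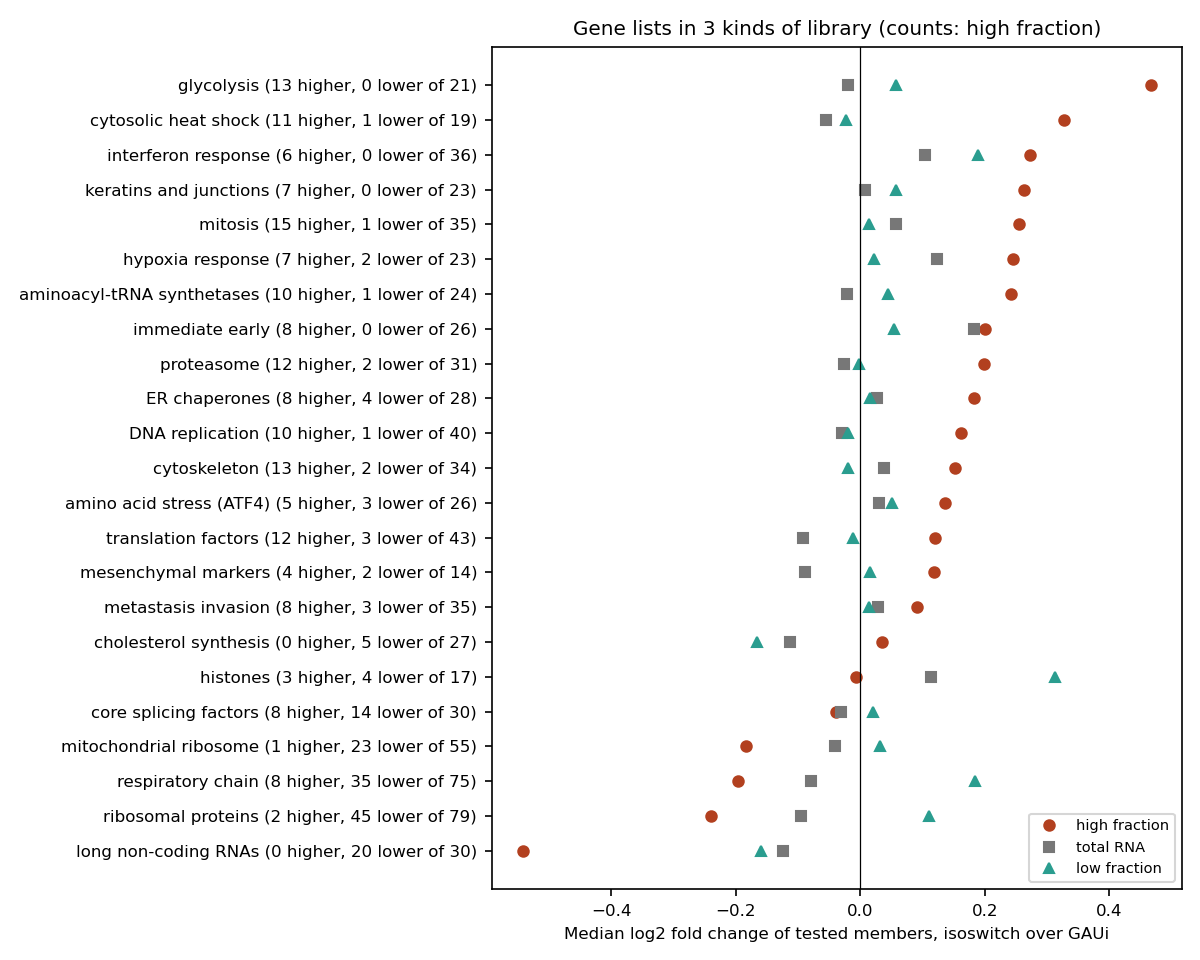
Median log2 fold change of isoswitch over GAUi cells (horizontal axis) over the tested members of each gene list, in the high fraction (red circles), total RNA (grey squares) and the low fraction (green triangles). The red points run from 0.47 for glycolysis to -0.54 for long non-coding RNAs, and the numbers of members called in the high fraction stand beside each name.

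No gene was called in total RNA. Of 12023 genes tested there, 0 (0%) passed (smallest adjusted p = 0.273), 981 had an unadjusted p under 0.05, and DESeq2 called 4. Without GAUi A, 12 genes were called, and NDRG1 and DDIT4 were among them, with log2 fold changes of 0.76 and 0.77 (adjusted p = 0.00551 and 0.0158). The genes called higher in the high fraction had a median log2 fold change of 0.001 in total RNA, and those called lower a median of -0.009. Across 11517 genes tested in both, Spearman's rho of the high-fraction difference with the total RNA difference was 0.02, a description over genes that share libraries. For glycolysis the median was -0.02 in total RNA and 0.06 in the low fraction, for long non-coding RNAs -0.12 and -0.16. PKM had 594.5, 645 and 617 CPM in isoswitch total RNA, against 874, 691 and 675 CPM in GAUi total RNA (-0.27, adjusted p = 0.579).

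In the low fraction 56 of 12068 genes were called (0.464%), of which 37 rose (0.307%) and 19 fell (0.157%). Respiratory chain genes were higher for 6 of 75 there with a median of 0.19, and histones for 3 of 18 with a median of 0.31, beside medians of -0.20 and -0.01 in the high fraction. Ribosomal proteins had a median of 0.11 with RPLP0 the 1 member called, lower (-0.48). ISG15, a ubiquitin-like interferon product, had 29.4, 27.03 and 26.6 CPM in isoswitch low fractions, against 16.2, 18.9 and 15.9 CPM in GAUi low fractions (0.69, SE 0.13, adjusted p = 0.00794), but its level in the high fraction differed by -0.02 (adjusted p = 0.901). HIST1H2AJ (0.85), the growth factor PTN (0.68) and HIST2H2AC (0.62) were the other highest genes with a mean log2 CPM of at least 3, and RN7SL1, the RNA of the signal recognition particle (-0.65), ARFGAP1 (-0.59), RPPH1 (-0.54) and FTL, the light ferritin chain (-0.53), the lowest. FTL had 1758, 2376 and 2058 CPM in isoswitch, against 3408, 2689 and 2816 CPM in GAUi low fractions. The number called was 0 without GAUi A or GAUi C, 7 without isoswitch A and 299 without isoswitch B.

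The high-to-total ratio was compared directly, as the isoswitch minus GAUi difference in the high fraction less that in total RNA. It differed for 330 of 12199 genes (2.71%), of which 182 rose (1.49%) and 148 fell (1.21%). The count depended on single libraries, in either direction. Leaving out a total RNA library gave 1464 for GAUi A, 540 for GAUi B, and 44, 30 and 0 for isoswitch A, B and C. Leaving out a high-fraction library gave 3 for GAUi A, 216 for GAUi B, 39 for GAUi C, 9 for isoswitch A and 82 for isoswitch C. Of the genes called in the high fraction, 161 of 1071 higher ones and 136 of 1151 lower ones were also called in the same direction in this ratio, which shares those libraries. Glycolysis had 6 of 21 members higher, with PKM at 1.06 (adjusted p = 0.00806) and LDHA at 0.91 (adjusted p = 0.0102), and ribosomal proteins had 12 of 79 lower, with RPS28 at -1.03 (adjusted p = 0.00806). Against the low fraction, 1168 of 12449 genes differed (9.38%), of which 452 rose (3.63%) and 716 fell (5.75%), including 44 of 75 respiratory chain genes and 39 of 79 ribosomal protein genes lower. Called higher genes made up 38.7% of these, but 27.4% with RLE scaling, 26.1% with DESeq2 and 24.5% without a filter on low counts. The count was 661 without low-fraction GAUi C, 692 without high-fraction GAUi A and 730 without high-fraction isoswitch A.

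Called genes differed in how much of their RNA lay in the low fraction. Genes were ordered by their low-to-total ratio, the log2 level in the low fraction minus total RNA averaged over both lines, which uses no high-fraction library, and divided into quintiles of 2317 genes. This ordering was chosen after the values were seen. In the first quintile, whose mRNAs were least represented in the low fraction, 680 genes were higher in isoswitch heavy polysomes and 6 lower, with a median log2 fold change of 0.23. In the last quintile, whose RNAs were most represented there, 10 were higher and 625 lower, with a median of -0.24. The quintiles between ran in order, with 235 higher and 45 lower, then 112 and 159, then 34 and 316. Across 11585 genes Spearman's rho of the high-fraction difference with the ratio was -0.56.

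**Figure D5:**
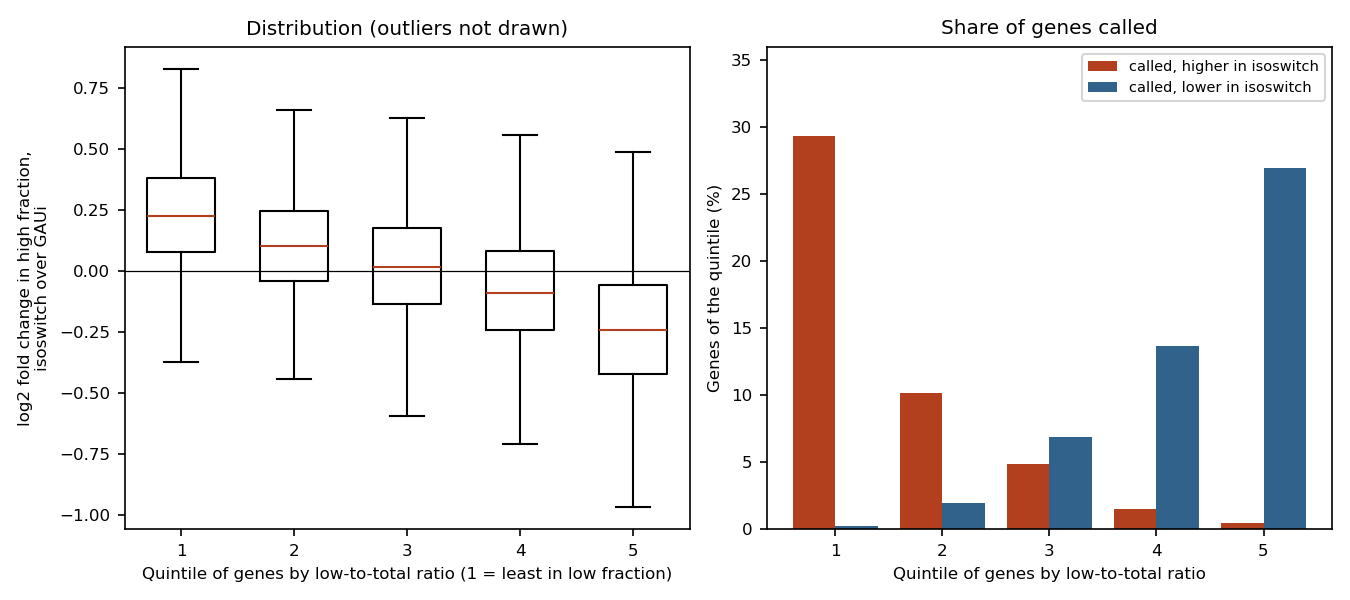
Left, box plots of the log2 fold change of isoswitch over GAUi cells in the high fraction (median, quartiles and whiskers to 1.5 times the interquartile range) for genes in quintiles of the low-to-total ratio (horizontal axis). Right, the percentage of each quintile called higher (red) or lower (blue) in isoswitch: 29.35% and 0.259% in the first quintile, 0.43% and 26.97% in the last.

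The shift was visible in every library. Genes of the first quintile took 25.3%, 23.3% and 24.2% of the high-fraction counts of isoswitch A, B and C, against 19.85%, 20.98% and 19.81% in GAUi A, B and C. Those of the last quintile took 11.9%, 13.8% and 13.3% in isoswitch, against 16.3%, 15.1% and 16.2% in GAUi. The groups did not overlap at either end, with isoswitch A the farthest from GAUi and isoswitch B the nearest. Without isoswitch A the first quintile had 464 genes higher and the last 397 lower, and without GAUi A the counts were 399 and 392. Of the lists, glycolysis had 19 of 21 and the proteasome 26 of 31 members in the first quintile, and long non-coding RNAs had 28 of 30 in the last. The first quintile, where 29.35% of all genes rose, also held 17 of 24 aminoacyl-tRNA synthetase and 16 of 23 keratin and junction genes. With them were 13 of 19 heat shock, 21 of 34 cytoskeletal and 21 of 35 mitotic genes. For DNA replication it held 23 of 40 and for ER chaperones 15 of 28. Ribosomal protein, respiratory chain and mitochondrial ribosome genes were spread more widely. From first to last, ribosomal protein genes had 0, 14, 31, 21 and 13 of 79, and respiratory chain genes 22, 14, 10, 17 and 12 of 75. Mitochondrial ribosome genes, which mostly fell when called, had 14, 12, 17, 10 and 2 of 55. Gradient traces were not used here, so the place of the boundary between fractions and the loading of ribosomes cannot be told apart in these values.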

How the data were processed

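Libraries were made with the Lexogen QuantSeq 3' kit from 500 ng RNA, per the labels' protocols. The deposited files hold raw counts per gene symbol, 1 file per library. STAR, featureCounts, DESeq2 and build hg38 are listed in the submitters' processing notes; no source used here gives their versions, the annotation or the strand setting. Of 26485 symbols, 25320 matched RefSeq (GRCh38.p14). Total counts per library ran from 5629187 to 8973050.

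Counts were tested with edgeR 4.0.16 in R 4.3.3 (filterByExpr with a minimum count of 10, TMM, glmQLFit and glmQLFTest, Benjamini-Hochberg adjustment, threshold 0.05), within each fraction's 6 libraries; ratios of fractions were interactions over 12 libraries. SE was taken as the absolute log2 fold change over the root of F. The fits were tested on simulated data. The members and gene lists were chosen with earlier results of these data known. Named genes were the 15 highest and 15 lowest called high-fraction genes with no overlap and a mean log2 CPM of 3 or more, up to 4 called members per list by smallest p, the 4 highest and lowest of the low fraction and each ratio, the 5 smallest p in total RNA, and INSIG1, S100A4, IARS and PRKX. Other list members are named as examples chosen after their values were seen. DESeq2 1.42.0, RLE scaling, other filters, other fits and each library left out were alternatives. Low-to-total quintiles were ordered by the low minus total log2 difference over both lines. A few genes that the rule names are not reported here. Coding length, isoleucine content and AUA codon content were not analysed here. No pair of libraries of a group agreed within sampling noise. Same letters did not pair the samples (deviations correlated at -0.167, -0.0699 and -0.0753 in the high fraction).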

Additional observations from a re-analysis of the deposited data

Results flagged for a closer look

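The isoswitch minus GAUi difference was not the same in the high fraction as in total RNA for 330 genes, by the interaction test of edgeR. Among called genes without overlap and with a mean log2 CPM of at least 3, the 4 highest differences of the high-to-total ratio were 1.39 for PHGDH, a serine synthesis enzyme, 1.14 for PPP2R1A, 1.118 for ANXA1 and 1.117 for the RNA demethylase FTO. The 4 lowest were -1.94 for TERC, the telomerase RNA, -1.26 for UBTD1, -1.23 for PRR7 and -1.21 for CASC8. TERC had 1.39, 2.71 and 1.71 CPM in isoswitch high fractions, against 3.25, 3.83 and 5.16 CPM in GAUi, while its total RNA was 66.8, 64.3 and 69.2 CPM in isoswitch, against 24.5, 27.3 and 58.6 CPM in GAUi, so its ratio rests on few counts in the high fraction and on a wide spread in GAUi total RNA. Without total RNA GAUi A the 8 genes remained called (adjusted p = 0.00141 to 0.0223), with TERC at -1.71 and PHGDH at 1.16. Without total RNA isoswitch C 0 genes of the whole comparison were called, these 8 included, and without high-fraction GAUi A or isoswitch A 3 and 9 were. The part of that library in these results was not otherwise tested.

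The difference was not the same in the high as in the low fraction for 1168 genes. By the same limits on overlap and level, the highest were HERC5 (1.24), MYC (1.16), MCCD1 (1.15) and SIPA1L3 (1.02), and among the lowest were MIR4458HG (-1.36), C10orf32 (-1.02) and ZNF37BP (-0.93). MYC had 14.3, 13.5 and 14 CPM in isoswitch high fractions, against 8.71, 10.1 and 4.38 CPM in GAUi, and 11.6, 17.8 and 9.90 CPM in isoswitch low fractions, against 16.4, 16.3 and 16.5 CPM in GAUi. ZNF37BP is a transcribed pseudogene with uncertain reads.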

How the results depend on the processing

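In the high fraction 1469 genes were called when 18 libraries of both lines shared the fit, and 1239 to 2273 when 1 library was left out; the other 6 alternatives gave 1797 to 2349. In total RNA, where 0 were called, DESeq2 called 4, the fit without a filter on low counts 46 and the fit of 18 libraries 44, with 0 to 12 when 1 library was left out. In the low fraction these gave 133, 131 and 2, against 56, with 0 to 299 when 1 was left out. For the high-to-total ratio they gave 675, 716 and 648, against 330, with 0 to 1464 when 1 was left out. For the high-to-low ratio the fit of 18 libraries gave 562, with 661 to 1421 when 1 was left out. With a replicate block on the letters, which do not pair the samples, the counts were 1831 in the high fraction, 0 in total RNA, 67 in the low fraction, 215 for the high-to-total and 923 for the high-to-low ratio; in the high fraction 0 of 3 isoswitch libraries correlated best with their own letter. The cause of these shifts was not tested. Of 117 named genes called in the high fraction, 108 lost the call under none of 13 alternatives. The other 9 lost it at least once, SREBF2 most often (6), and 0 reversed. A gene without an adjusted p in an alternative counted as not lost. DESeq2 gave 7 of the named genes no adjusted p, and the filter of at least 5 CPM kept 116 of 118. Depth limits the low genes: OAS3 and TERC rest on few counts per library.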

Other observations

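Some genes went against the ordering by low-to-total ratio; they were chosen after their values were seen. In the last quintile, where 625 genes were lower in isoswitch heavy polysomes, 10 were higher, among them YBX1 and YBX3, cold shock domain proteins that bind and package mRNA. YBX1 had 1257, 1105 and 1130 CPM in isoswitch, against 865, 942 and 974 CPM in GAUi (0.33 in log2, SE 0.07, with an adjusted p = 0.00374 from edgeR). YBX3 had 279, 264 and 263 CPM in isoswitch, against 233, 223 and 218 CPM in GAUi (0.26, SE 0.07, adjusted p = 0.0132). The groups did not overlap in either, and neither was called in total RNA (adjusted p = 0.825 and 0.713) or in the low fraction (adjusted p = 0.67 and 0.354). The transcriptional repressor KLF3 (0.48), NDUFA4L2, a hypoxia-induced mitochondrial protein (0.46), the RNA cap methyltransferase PCIF1 (0.74), SNX16 (0.61), TMEM254 (0.55), ZNF251 (1.46), KCTD18 (0.87) and SYT17 (0.85) were the others. In the first quintile 6 genes were lower, among them MPV17L2 (-0.60), the copper transporter SLC31A1 (-0.27), the cyclophilin PPIH (-0.27), the Arp2/3 subunit ARPC3 (-0.23) and RPL36AL (-0.21). PPIH had 155, 149 and 149.5 CPM in isoswitch, against 181, 187 and 179 CPM in GAUi.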
